A study of Homo sapiens with 12 samples.

Results

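The ETS transcription factors that receive signals from ERK were followed in A375 melanoma cells at the level of their mRNAs. They comprise the PEA3 group (ETV1, ETV4 and ETV5), ETS1 and ETS2, the ternary complex factors (ELK1, ELK3 and ELK4) and the repressors ERF and ETV6. The 10 genes were chosen for their role, with earlier results of these data known, as were the lists of related genes. They were taken by symbol from a table of raw read counts of 44659 genes. All 10 were found in it and passed the limit on low counts in both experiments, and the human ETS family counts 18 further genes that serve here as a comparison.

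RNA-seq was performed in 2 experiments of 6 libraries each, with 3 libraries per group. In the MAPKi experiment, A375 cells were cultured in medium with 2 mM glutamine. They received 500 nM of vemurafenib, a BRAF inhibitor, together with 500 nM of cobimetinib, a MEK inhibitor (MAPKi), for 24 h, or DMSO for 24 h. In the Gln depletion experiment, A375 cells were kept for 24 h without glutamine (Gln-depleted) or in control medium with 2 mM glutamine (CTRL). All 4 groups are the same established human melanoma line from ATCC, whose BRAF gene carries an activating mutation, so that no group has a normal BRAF, and all were grown in DMEM with serum. The MAPKi and DMSO libraries belong to sequencing batch 2 and the others to sequencing batch 1, and the libraries of the Gln depletion experiment come from experimental batch 1 (replicate 1 of both groups) or 2 (replicates 2 and 3). The labels do not say whether replicates came from separate cultures, so p-values measure the spread between these libraries, which may be technical in part.

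The libraries held 31056296 to 40071368 counted reads, with a median of 35748567. Levels are given as normalized counts, that is reads scaled to a common library size within an experiment by edgeR's TMM method, and a gene was tested when its mean over the 6 libraries was at least 10. P-values were adjusted over all genes tested by the method of Benjamini and Hochberg. The 8 markers of the melanocyte lineage looked at were all above this limit in the MAPKi, DMSO and CTRL groups and 7 were in the Gln-depleted group. Their summed normalized count ranged from 303116 to 390259 with MAPKi, from 46939 to 49392 with DMSO, from 23737 to 26750.5 in Gln-depleted cells and from 35769.9 to 44462 in CTRL cells. The 3 markers of the neural crest and of undifferentiated cells summed to 6745 to 7472 with MAPKi and to 19518 to 20718 with DMSO. Their sum went from 22688 to 41123 in Gln-depleted and from 16307 to 25847 in CTRL cells. The sums hide opposite changes with MAPKi (adjusted p of 0.05 or less in edgeR's quasi-likelihood test). Of these 3, SOX9 fell (log2 fold change -3.37) while AXL and NGFR rose. Of the melanocyte markers, S100B fell (-2.13) and 7 rose. Of all genes tested, 35.9% fell and 35.8% rose with MAPKi. In Gln-depleted cells MITF was lower and AXL and NGFR were higher in the same test, where 6.96% and 8.84% of all genes were. With the replicate number as a block, DCT and S100B were lower as well and SOX9 higher, where 19.8% and 22.7% of all genes were. Among the markers of other cell types, 2 of the 3 keratinocyte genes (KRT5 and KRT1) had no read, and the 3 together summed to at most 7.07 in any library. The 2 endothelial genes summed to at most 1.10 and the 2 leukocyte genes to at most 18.2, whereas the 3 fibroblast genes summed to 132 to 157 with DMSO, 455 to 471 with MAPKi, 131 to 244 in CTRL and 246 to 310 in Gln-depleted cells, and COL1A1 and PDGFRB rose with MAPKi. The part of these shifts in the results that follow was not tested. In RNA from whole populations, fewer cells expressing a gene and less RNA of it per cell cannot be told apart.

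ETS factors share a DNA-binding domain that reads a GGAA core, and ERK acts on them by different routes. It phosphorylates the ternary complex factors, which sit with the serum response factor SRF on the promoters of immediate-early genes, it activates ETS1 and ETS2, and it drives the repressor ERF out of the nucleus. The PEA3 genes are held down by the repressor CIC (capicua), which ERK inactivates, and they are known as an output of ERK signalling in melanoma. The genes of negative feedback, such as the DUSP, SPRY and SPRED genes, are reached by the same routes.

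Promoters were taken from RefSeq on GRCh38.p14 as the 250 bases before and the 50 bases after a start of transcription. Of the 10 members, 7 were matched, with 16 promoters in all, and those of ETV4, ETV5 and ETS1 were not analysed here. ETV1 has 6 of the 16, and some of its windows overlap, so the 16 are not separate stretches. Motifs were searched on both strands. The ETS core GGAA was present in 16 of the 16 promoters, and in 95.5% of all 35116 promoters. The CIC octamer TGAATGGA was present in 1 of the 16, against 1.03% of all promoters, and the other CIC octamer, TGAATGAA, in 0 of the 16, against 1.65%. A TGAATGGA that is followed by an A also holds a GGAA. The cAMP response element TGACGTCA and the CArG box, to which SRF binds, were found in 0 of the 16, against 1.85% and 1.29% of all promoters. These matches describe the letters of the window and say nothing of binding. The promoter of ETV1 that holds the octamer is shown from 200 to 51 bases before its start (GRCh38.p14, chr7:13991476-13991625, minus strand), since ETV1 is among the genes that fell most with MAPKi, and the capitals mark the octamer, which begins 125 bases before the start. The octamer is in 1 of the 6 promoters of ETV1. Of the genes repressed by CIC 7 were matched, with 10 promoters, and those of DUSP6, SPRY2, SPRY4, SPRED1, SPRED2 and SHC3 held neither octamer, while SHC4 held a TGAATGAA.
ETV1: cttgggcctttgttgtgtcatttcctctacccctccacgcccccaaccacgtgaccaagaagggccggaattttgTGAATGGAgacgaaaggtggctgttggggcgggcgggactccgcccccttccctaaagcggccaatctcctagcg

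The CArG boxes that ternary complex factors share with SRF are shown for EGR1 and SRF, whose mRNAs are given with the immediate-early genes. At least 2 CArG boxes were present in these promoters, as in 11 of the 35116 promoters (0.0313%). For EGR1, the stretch runs from 140 to 41 bases before the start (GRCh38.p14, chr5:138465339-138465438, plus strand) and its boxes begin 105 and 83 bases before it. For SRF, it covers the 100 bases before the start (GRCh38.p14, chr6:43171169-43171268, plus strand), with boxes beginning 30 and 10 bases before it. Among the immediate-early genes 8 were matched, with 12 promoters, and a CArG box was present for EGR1, for SRF in 1 of its 2 promoters and for EGR2 in 1 of 3. The promoters of FOS, FOSB, IER2, JUNB and NR4A1 held none in this window. Capitals mark the boxes.
EGR1: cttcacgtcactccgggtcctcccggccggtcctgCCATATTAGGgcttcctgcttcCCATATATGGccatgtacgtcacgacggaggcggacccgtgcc
SRF: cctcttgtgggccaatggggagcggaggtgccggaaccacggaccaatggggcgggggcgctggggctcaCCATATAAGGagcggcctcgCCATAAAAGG

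The MAPKi experiment asked which mRNAs depend on the BRAF and MEK kinases. Of the 10 ETS factors, 7 fell with MAPKi and 2 rose (adjusted p of 0.05 or less) in edgeR's quasi-likelihood test, where 35.9% of the 15975 genes tested fell and 35.8% rose. The changes were of very different size, with ETV1, ETV4 and ETV5 at 1.16% to 2.17% of their DMSO level and the other 7 genes between 43.1% and 138% of it. Downregulation by more than 1.5-fold, as tested with glmTreat of edgeR, was called for 5 members (ETV1, ETV4, ETV5, ETS2 and ELK3), where 17.6% of all genes were. The median log2 fold change of the 10 members was -0.75, and that of all genes tested was -0.0013. The libraries of the 2 groups did not overlap for any member, with 7 members lower in all MAPKi libraries than in any DMSO library (38.1% of all genes) and 3 higher (37.9%).

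**Figure D1:**
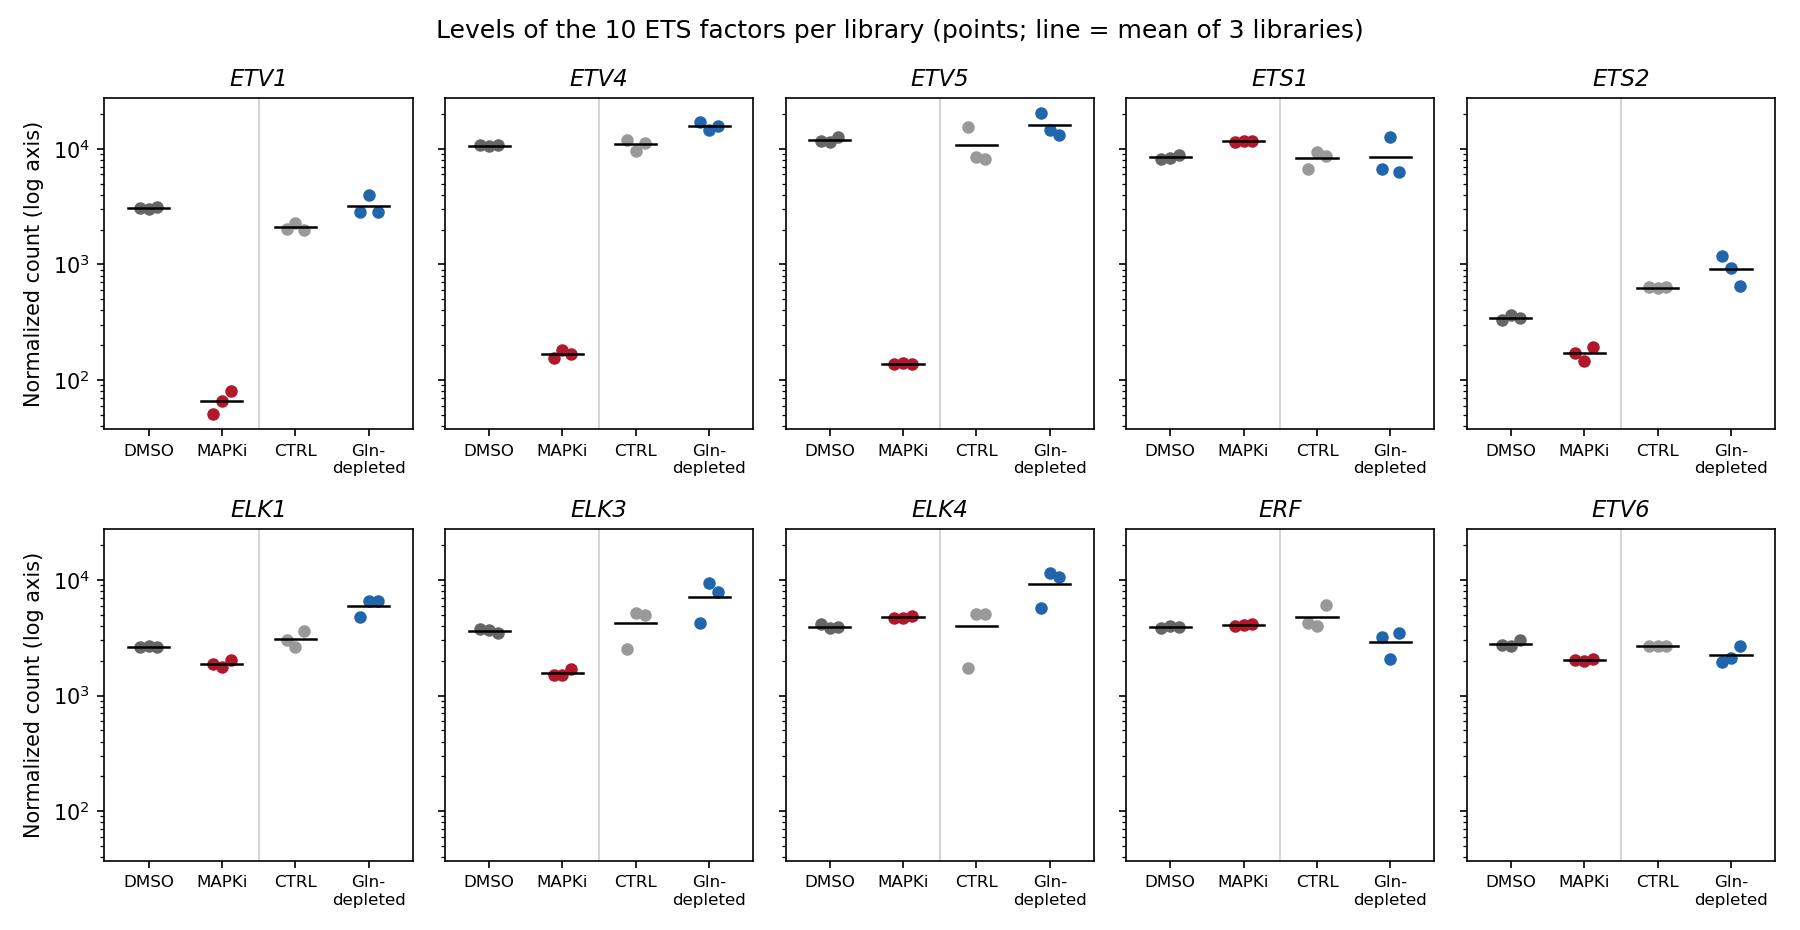
Normalized count (log axis) of the 10 ETS factors in each library (points) with the mean of 3 libraries (line). Counts are scaled within each experiment, so that DMSO compares with MAPKi and CTRL with Gln-depleted. The MAPKi libraries of ETV1, ETV4 and ETV5 lie between 50.5 and 181, far below the DMSO libraries, whereas those of ETV1 lie between 1969 and 2289.9 in CTRL and between 2832 and 3978 in Gln-depleted libraries.

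The PEA3 genes had the largest falls of the 10. ETV4 (ENSG00000175832, chromosome 17 of GRCh38 from 43527844 to 43579620, minus strand) encodes the founding member of the group. Its normalized counts were 10773, 10479 and 10707 in the DMSO libraries and 154, 181 and 167 in the MAPKi libraries. Every MAPKi library was lower than every DMSO library, and the spread within a group was small beside this gap. The log2 fold change was -5.99 (standard error 0.06, edgeR quasi-likelihood adjusted p = 4.71e-10), which is 63.6-fold lower. ETV5 (ENSG00000244405, chromosome 3 from 186046314 to 186110318, minus strand), a close relative of ETV4, had normalized counts of 11608, 11524 and 12542 with DMSO and of 138, 140.3 and 136 with MAPKi. The 3 MAPKi libraries were nearly alike. ETV5 had a log2 fold change of -6.43 (standard error 0.06, adjusted p = 4.71e-10 from the same test), 86.1-fold lower. ETV1 (ENSG00000006468, chromosome 7 from 13891229 to 13991425, minus strand), which is best known as a lineage factor of gastrointestinal stromal tumours, was the least abundant of the 3 with DMSO. It had normalized counts of 3084, 2995 and 3125 with DMSO and of 50.5, 66.3 and 80.9 with MAPKi. These MAPKi values came from 50, 60 and 91 reads, and their SD (15.2) is larger relative to their mean than for ETV4 and ETV5. ETV1 had a log2 fold change of -5.53 (standard error 0.11, adjusted p = 5.65e-09 from the same test), 46.1-fold lower. Ranked by log2 fold change from the strongest fall, ETV5, ETV4 and ETV1 came 24th, 32nd and 45th of 15975 genes.

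ETS1 and ETS2, paralogs that ERK phosphorylates beside their Pointed domain, went in opposite directions. ETS1 (ENSG00000134954, chromosome 11 from 128458761 to 128587558, minus strand) had normalized counts of 8164, 8302 and 8787 with DMSO and of 11497, 11583 and 11689 with MAPKi. It rose in all MAPKi libraries, by a log2 fold change of 0.46 (standard error 0.04, edgeR quasi-likelihood adjusted p = 1.71e-05), or 1.38-fold. ETS2 (ENSG00000157557, chromosome 21 from 38805183 to 38824955, plus strand) was the scarcest member with DMSO, with normalized counts of 330.0, 363 and 341 with DMSO and of 171, 146 and 194 with MAPKi. Its groups did not overlap either. It fell by 1.02 on the log2 scale (standard error 0.12, adjusted p = 7.57e-05 from the same test), 2.02-fold lower.

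Among the ternary complex factors, which do their work on the promoters of immediate-early genes, 2 fell and 1 rose. ELK3 (ENSG00000111145, chromosome 12 from 96194375 to 96269824, plus strand), known as Net and a repressor until it is phosphorylated, had normalized counts of 3764, 3672 and 3448 with DMSO and of 1494, 1498 and 1693 with MAPKi. It fell in all MAPKi libraries by 1.21 on the log2 scale (standard error 0.06, edgeR quasi-likelihood adjusted p = 3.68e-07). ELK1 (ENSG00000126767, chromosome X from 47635521 to 47650604, minus strand), the archetype of the subfamily, had normalized counts of 2617, 2709 and 2614 with DMSO and of 1882, 1754 and 2014 with MAPKi. Its fall was smaller, with a log2 fold change of -0.49 (standard error 0.05, adjusted p = 5.11e-05 from the same test). ELK4 (ENSG00000158711, chromosome 1 from 205597556 to 205632011, minus strand), also called SAP-1, had normalized counts of 4128, 3828 and 3889 with DMSO and of 4691, 4712 and 4861 with MAPKi. All MAPKi libraries were higher than all DMSO libraries for ELK4, which rose by 0.27 on the log2 scale (standard error 0.04, adjusted p = 0.000579 from the same test). The rises of ELK4 and ETS1 did not pass in a fit of all 12 libraries with 1 shared estimate of the spread (edgeR quasi-likelihood adjusted p = 0.535 and 0.112), whereas their log2 fold changes there were 0.28 and 0.47.

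Of the repressors, ETV6 fell and ERF did not pass the test. ETV6 (ENSG00000139083, chromosome 12 from 11649674 to 11895377, plus strand), also known as TEL, had normalized counts of 2716, 2708 and 3006 with DMSO and of 2045, 2011 and 2078 with MAPKi. It had a log2 fold change of -0.46 (standard error 0.05, edgeR quasi-likelihood adjusted p = 4.81e-05). ERF (ENSG00000105722, chromosome 19 from 42247569 to 42255128, minus strand), which competes with activating ETS factors when ERK is inactive, had normalized counts of 3877, 3981 and 3949.6 with DMSO and of 4038, 4079.9 and 4136 with MAPKi. The MAPKi libraries were all slightly higher, with a log2 fold change of 0.05 (standard error 0.04, adjusted p = 0.217 from the same test). Some of the genes share ground with a neighbour in the RefSeq annotation (ETV4 with DHX8, ETV5 with ETV5-AS1 and ETS1 with ETS1-AS1, among others), and reads in a shared stretch cannot be assigned to either without knowing the strand setting of the counting.

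**Figure D2:**
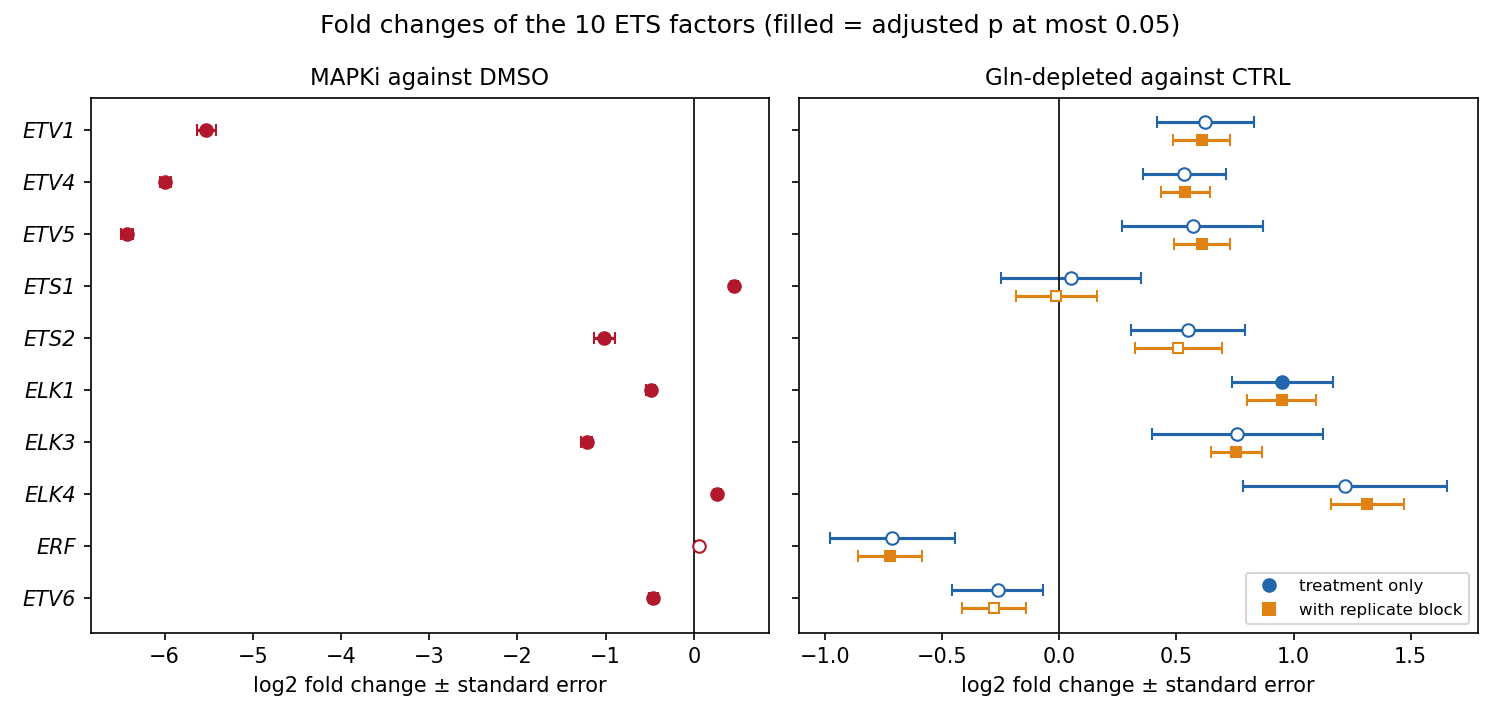
Log2 fold change with its standard error of the 10 ETS factors with MAPKi (left) and in Gln-depleted cells (right, circles for the fit with treatment only, squares with the replicate block); the scales of the 2 panels differ. Filled symbols had an adjusted p of 0.05 or less in edgeR's quasi-likelihood test. With MAPKi, the PEA3 group lies between -6.43 and -5.53 and the others between -1.21 and 0.46.

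The Gln depletion experiment asked the same of a lack of glutamine. In Gln-depleted cells 7 members had a higher count than the CTRL library of the same replicate number in 3 of 3 pairs (35.6% of all genes did), while ERF alone had a lower one in 3 of 3 pairs (32.3% of all genes). With treatment as the only term, ELK1 was the member called higher, where 8.84% of the 15900 genes tested were. Among those 10 members, 0 were called lower, against 6.96% of all genes. At an unadjusted p under 0.05 in edgeR's quasi-likelihood test 1 was lower and 4 were higher. All genes were not counted at this limit, so these numbers cannot be set against a share of all genes. With DESeq2 0 were lower and 2 higher, where 1619 and 1929 of 15869 genes were. Libraries of the same replicate number deviated together from their groups, and with the replicate number as a block 6 members were higher (ETV1, ETV4, ETV5, ELK1, ELK3 and ELK4), where 22.7% of all genes were, and 1 was lower (ERF), where 19.8% were. By more than 1.5-fold, ELK1 and ELK4 were upregulated with the block, where 8.41% of all genes were. The groups were separate for 6 members, 5 of them higher in all Gln-depleted libraries than in any CTRL library (20.1% of all genes) and 1 lower (18.4%). The median log2 fold change of the members was 0.56, and that of all genes tested was 0.017.

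The ternary complex factors showed the largest differences. ELK1 had normalized counts of 3025, 2637 and 3624 in CTRL and of 4796, 6595 and 6575 in Gln-depleted libraries. It was higher in each Gln-depleted library than in any CTRL library, with a log2 fold change of 0.95 (standard error 0.22, edgeR quasi-likelihood adjusted p = 0.0245, 0.003 with the block). The adjusted p of ELK1 from this test was 0.0971 without Gln-depleted replicate 2, 0.0784 without Gln-depleted replicate 3, 0.095 without CTRL replicate 2 and 0.0547 without CTRL replicate 3, with log2 fold changes of 0.88, 0.86, 0.85 and 1.08. ELK4 had normalized counts of 1728, 5076 and 5105 in CTRL and of 5752, 11439.9 and 10534 in Gln-depleted libraries. The replicate 1 libraries, from experimental batch 1, were low in both groups, while every Gln-depleted library stayed above all of CTRL. The log2 fold change of ELK4 was 1.22 (standard error 0.43, edgeR quasi-likelihood adjusted p = 0.0919) without the block and 1.31 (standard error 0.16, adjusted p = 0.00116 from the same test) with it. ELK3 had normalized counts of 2513, 5189 and 4988 in CTRL and of 4224, 9405 and 7876 in Gln-depleted libraries. Its groups overlapped, with replicate 1 low in both, and within each pair Gln-depleted was higher, by 0.75, 0.86 and 0.66 on the log2 scale. Its log2 fold change was 0.76, with an adjusted p of 0.185 from edgeR's quasi-likelihood test without the block and of 0.00225 with it.

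The 3 PEA3 genes lay at similar distances from CTRL. ETV1 had normalized counts of 2013, 2289.9 and 1969 in CTRL and of 2849, 3978 and 2832 in Gln-depleted libraries. ETV4 had 12023, 9544 and 11204 in CTRL and 16944, 14652 and 15853 in Gln-depleted libraries. In both genes the groups did not overlap, with log2 fold changes of 0.62 for ETV1 (edgeR quasi-likelihood adjusted p = 0.0764, 0.00743 with the block) and of 0.53 for ETV4 (adjusted p = 0.0771 from the same test, 0.00658 with the block). ETV5 had normalized counts of 15589, 8536 and 8204 in CTRL and of 20384, 14482 and 13099.6 in Gln-depleted libraries. Here replicate 1 was the highest in both groups, in contrast to ELK3 and ELK4, and the ranges overlapped. The log2 fold change of ETV5 was 0.57 (edgeR quasi-likelihood adjusted p = 0.223) without the block and 0.61 (adjusted p = 0.00679 from the same test) with it. Without the block it went from 0.36 without Gln-depleted replicate 1 to 0.93 without CTRL replicate 1, where it passed (adjusted p = 0.048 in this test).

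ETS1 and ETS2 passed in neither fit. ETS1 had normalized counts of 6742, 9398 and 8674 in CTRL and of 6667, 12709.7 and 6327 in Gln-depleted libraries. Gln-depleted replicate 2 stood above all CTRL libraries and the other two did not, and the log2 fold change was 0.05 (standard error 0.30, edgeR quasi-likelihood adjusted p = 0.92) without the block and -0.01 with it. Without Gln-depleted replicate 2 it was -0.35. ETS2 had normalized counts of 637, 618 and 632 in CTRL and of 1177, 936 and 647 in Gln-depleted libraries, all of the latter above CTRL but replicate 3 by little. Its log2 fold change was 0.55 (edgeR quasi-likelihood adjusted p = 0.157, 0.0624 with the block).

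Both repressors had negative fold changes. ERF had normalized counts of 4241, 3965 and 6099 in CTRL and of 3186, 2061 and 3488 in Gln-depleted libraries. All of the latter were below all CTRL libraries, and the log2 fold change was -0.71 (standard error 0.27, edgeR quasi-likelihood adjusted p = 0.105) without the block and -0.72 (standard error 0.14, adjusted p = 0.00609 from the same test) with it. ETV6 had normalized counts of 2711, 2679.6 and 2705 in CTRL and of 1935, 2102 and 2712 in Gln-depleted libraries. Replicate 3 of the Gln-depleted cells was level with CTRL, and the log2 fold change of -0.26 had an adjusted p of 0.377 from edgeR's quasi-likelihood test, or of 0.139 with the block.

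Within experimental batch 2 alone, with 2 libraries per group, 5 members were higher in Gln-depleted cells, where 15.5% of the 15899 genes tested were. These were ELK4 (log2 fold change 1.11), ELK1 (1.07), ELK3 (0.76), ETV5 (0.72) and ETV4 (0.56), with adjusted p from 0.00604 for ELK4 to 0.04 for ETV4 in edgeR's quasi-likelihood test. In the pair of experimental batch 1, which allows no test, the log2 ratio of Gln-depleted to CTRL was 1.73 for ELK4, 0.89 for ETS2, 0.75 for ELK3, 0.66 for ELK1, 0.50 for ETV1, 0.49 for ETV4, 0.39 for ETV5, -0.02 for ETS1, -0.41 for ERF and -0.49 for ETV6. In CTRL cells, ELK4 was 2.95-fold and ELK3 2.02-fold higher in batch 2 than in batch 1, and ETV5 was 1.86-fold higher in batch 1.

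**Figure D3:**
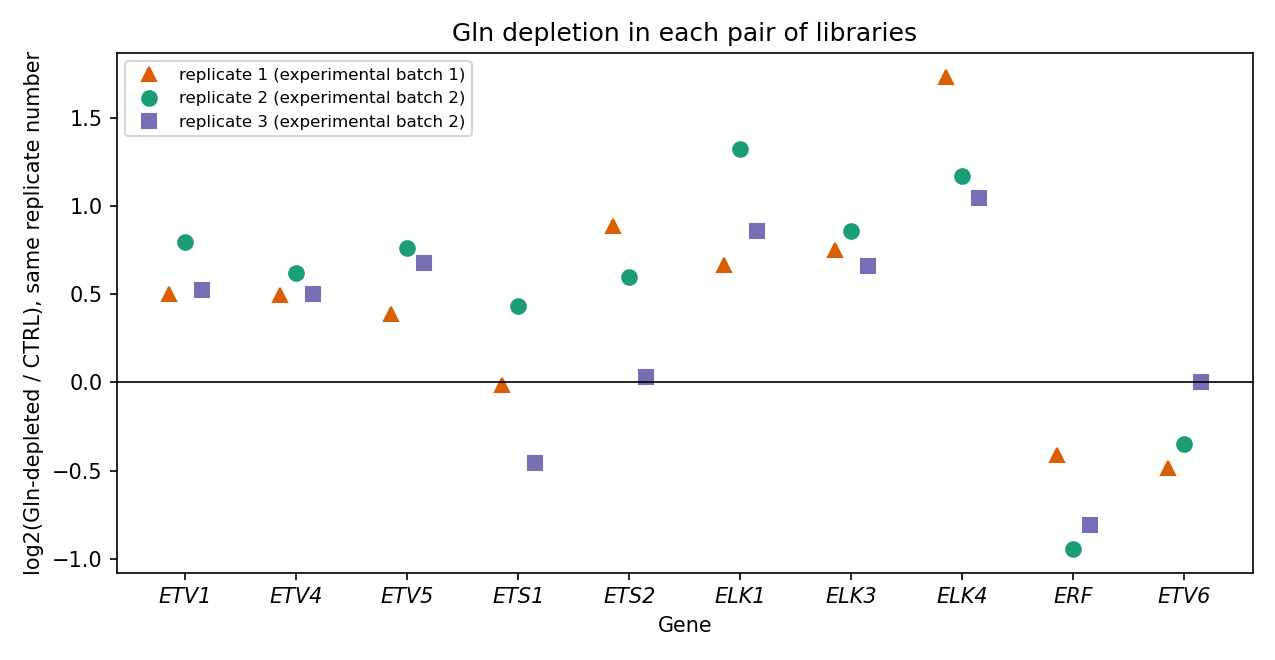
Log2 ratio of the normalized counts of Gln-depleted over CTRL libraries of the same replicate number, for the 10 ETS factors (triangles for replicate 1 of experimental batch 1, circles and squares for replicates 2 and 3 of batch 2). ETV1, ETV4, ETV5, ETS2, ELK1, ELK3 and ELK4 are above 0 in 3 of 3 pairs and ERF is below 0 in 3 of 3, from -0.94 to -0.41.

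The effects of MAPKi and of Gln depletion were compared as a contrast over the 12 libraries, whose experiments share no library. For 6 members the effect of MAPKi was lower than that of Gln depletion, where 18.9% of the 16072 genes tested had a negative difference past the same limit, and 1 member had a positive one, where 17.2% did. The difference of log2 fold changes was -6.94 for ETV5 (standard error 0.38), -6.47 for ETV4 (0.19) and -6.11 for ETV1 (0.26), each with an adjusted p of at most 2.55e-07 from edgeR's quasi-likelihood test. It was -1.93 for ELK3 (adjusted p = 0.00342 from the same test), -1.52 for ETS2 (adjusted p = 0.00122) and -1.39 for ELK1 (adjusted p = 0.000352). For ERF the difference was 0.81 (standard error 0.28, edgeR quasi-likelihood adjusted p = 0.0383). The call of ERF was lost when any MAPKi or DMSO library was left out (differences from 0.80 to 0.82, adjusted p from 0.071 to 0.0761 from this test), without Gln-depleted replicate 2 (0.61, adjusted p = 0.0585) and without CTRL replicate 3 (0.61, adjusted p = 0.0876). ELK4 differed by -0.90 (adjusted p = 0.167 from the same test, 0.00169 with the replicate block), ETS1 by 0.46 (adjusted p = 0.292) and ETV6 by -0.15 (adjusted p = 0.559).

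To compare members with each other, levels were also expressed per length, as RPKM, the reads divided by exon length and library size. With DMSO, ETV4 was the most abundant of the 10 mRNAs, with 85.4 ± 1.96 (SD, n = 3), and ETV5 the second with 58.0 ± 3.17. ERF (33.9 ± 0.387) and ETS1 (33.2 ± 1.47) followed and did not differ beyond their spread, and neither did ELK3 (22.0 ± 0.920) and ELK1 (21.9 ± 0.252). Below them lay ETV6 with 10.9 ± 0.738, then ELK4 (9.12 ± 0.411) and ETV1 (9.01 ± 0.276), whose ranges overlapped, and ETS2 with 1.95 ± 0.0801. With MAPKi the order was a different one, in which the libraries of each gene were separate from those of the next. ETS1 came first with 46.0 ± 0.621, then ERF with 35.5 ± 0.588, ELK1 with 15.7 ± 1.02, ELK4 with 11.1 ± 0.232, ELK3 with 9.55 ± 0.689 and ETV6 with 8.03 ± 0.106. ETV4 dropped to the seventh place with 1.35 ± 0.119, above ETS2 (0.970 ± 0.132), ETV5 (0.680 ± 0.0148) and ETV1 (0.195 ± 0.0455). The lengths are those of the union of exons, and with the longest transcript ETV1 with DMSO was level with ETV6 (13.4 and 12.9) and above ELK4 (10.8), ETS1 (45.3) was above ERF (41.5) and ELK1 (25.9) above ELK3 (24.3).

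In the Gln depletion experiment ETV4 was again the most abundant member per length, with 87.7 ± 10.6 (SD, n = 3) in CTRL and 124 ± 9.54 in Gln-depleted cells, and ETV5 the second, with 52.8 ± 21.1 and 76.2 ± 18.7. In CTRL the libraries of ETV4 and ETV5 overlapped with the union of exons and were separate with the longest transcript, and in Gln-depleted cells they were separate with both. ETS2 was the least abundant in both groups, with 3.56 ± 0.0786 and 5.08 ± 1.48, and its libraries were separate from those of the next gene. In Gln-depleted cells ELK1 (48.4 ± 8.19) and ELK3 (42.4 ± 15.6) came next, above ETS1 (32.9 ± 13.6) and ERF (24.5 ± 6.41), and the ranges of neighbours overlapped from ELK1 down to ELK4.

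Summed over the 10 members, the level per length was 285 ± 6.42 (SD, n = 3) with DMSO and 129 ± 2.84 with MAPKi. The PEA3 group made up 53.4% ± 0.533 of this sum with DMSO and 1.73% ± 0.110 with MAPKi. ETS1 and ETS2 together made up 12.3% ± 0.312 with DMSO and 36.4% ± 0.458 with MAPKi, the ternary complex factors 18.6% ± 0.710 and 28.2% ± 0.884, and the repressors 15.7% ± 0.212 and 33.7% ± 0.371. Since shares add up to the whole, those of the other groups move with the PEA3 genes. The sum was 295 ± 16.7 in CTRL and 392 ± 13.3 in Gln-depleted cells, with a PEA3 share of 49.6% ± 8.57 and of 53.5% ± 7.85, ranges that overlapped. The repressors made up 17.5% ± 2.60 in CTRL and 8.48% ± 2.09 in Gln-depleted cells, and these libraries were separate (from 15.7% to 20.4% and from 6.19% to 10.3%). Over all 28 genes of the ETS family, the PEA3 group made up 45.04% ± 0.530 of the summed level with DMSO and 1.14% ± 0.0787 with MAPKi.

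**Figure D4:**
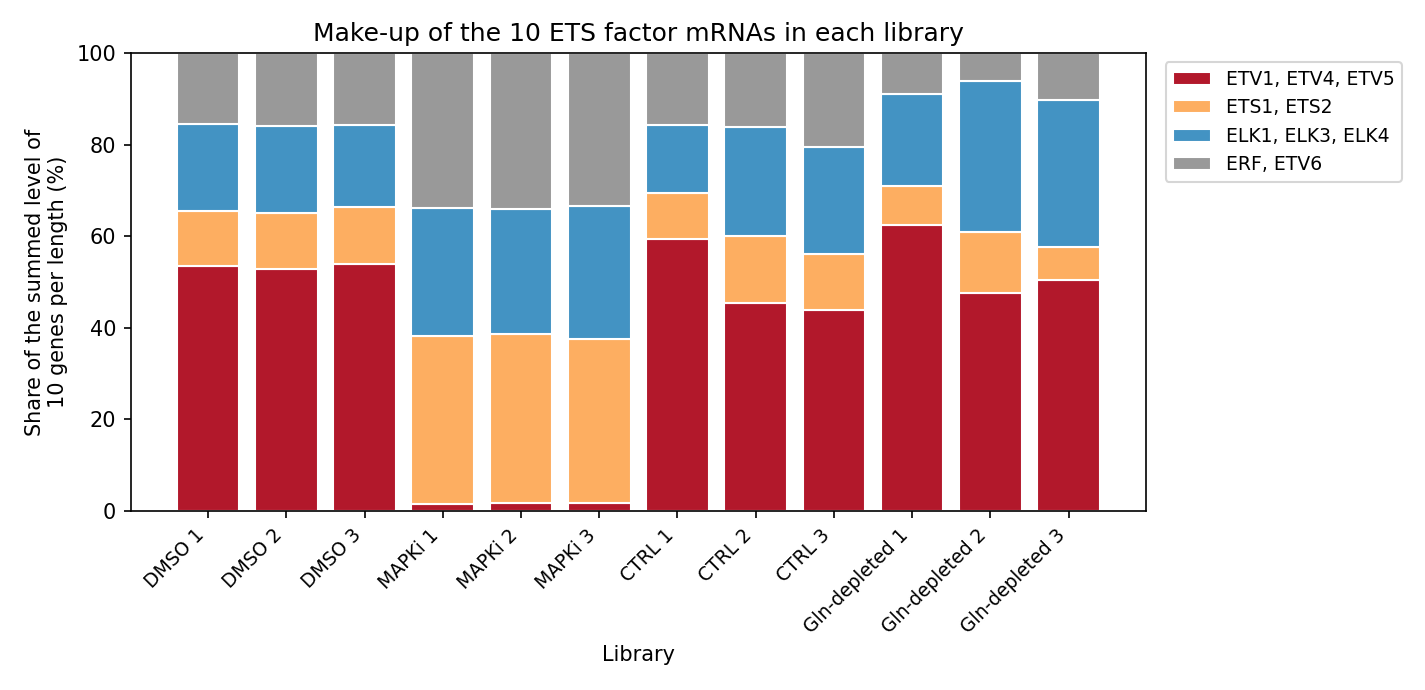
Share (%) of the PEA3 group, of ETS1 and ETS2, of the ternary complex factors and of the repressors in the level per length summed over the 10 ETS factors, in each of the 12 libraries. ETV1, ETV4 and ETV5 together go from 52.8% to 53.8% in DMSO libraries and from 1.63% to 1.85% in MAPKi libraries.

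The 2 control groups were not alike for every member, as CPM, the reads divided by library size, on a scale common to the 12 libraries show. ETS2 was at 9.71 ± 0.399 (SD, n = 3) in DMSO and at 17.7 ± 0.391 in CTRL libraries, and ETV1 at 86.4 ± 2.64 and 59.0 ± 5.07. For the other 8 members the ratio of the means went from 0.825 for ERF to 1.10 for ETV5 (DMSO over CTRL). DMSO, the experiment and the sequencing batch cannot be told apart in this comparison, which was not tested.

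The genes whose pattern over the 12 libraries was most like that of a PEA3 gene were found by the root mean square difference of log2 CPM, centred on each gene's mean, among 11717 genes. ETV4 was nearest to NFATC2 (0.240), ETV5 (0.261) and SPRY2 (0.292), and ETV5 to ETV4 (0.261), SPRY2 (0.388) and CTDSPL (0.391). ETV1 was nearest to SYTL5 (0.255), PLAT (0.426) and PPP1R14C (0.430). For ETV1, ETV4 had rank 5 (0.471) and ETV5 rank 11 (0.601).

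Of the other 18 genes of the ETS family, 8 passed the limit on low counts in each experiment, and the rest were below it. The sets differed, with SPI1 tested only in the MAPKi and SPIB only in the Gln depletion experiment. With MAPKi 5 rose (ELF1, ELF2, ETV2, GABPA and SPI1) and 0 fell, where 35.8% of all genes rose and 35.9% fell. DESeq2 called 4 higher and 0 lower, where 5447 and 5411 of 15964 genes were. At an unadjusted p under 0.05 in edgeR's quasi-likelihood test, where all genes were not counted, 5 were higher and 0 lower. Their median log2 fold change was 0.16. The call of ETV2 was lost without MAPKi replicate 1 or 3 and without DMSO replicate 1 or 3 (log2 fold changes from 0.54 to 0.70, adjusted p from 0.058 to 0.0965 in this test). SPI1, the myeloid factor PU.1, reached the limit on low counts only through its MAPKi libraries, so its place among the 5 depends on that limit. It had the largest rise, from normalized counts of 5.34, 2.98 and 4.82 with DMSO to 35.3, 60.8 and 61.3 with MAPKi, which remain low (log2 fold change 3.55, standard error 0.35, edgeR quasi-likelihood adjusted p = 2.68e-05). ELF1, the most abundant of them per length (28.3 with DMSO and 39.6 with MAPKi), had a log2 fold change of 0.47. In Gln-depleted cells 0 of the 8 tested passed in edgeR's quasi-likelihood test without the block, where 8.84% of all genes were higher and 6.96% lower. At an unadjusted p under 0.05 in this test, where all genes were not counted, 2 were higher. With DESeq2 1 was higher, where 1929 of 15869 genes were. With the block EHF and ELF4 were higher, with log2 fold changes of 1.46 and 0.73, where 22.7% of all genes were.

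Of 11 partners and regulators of the members, 6 rose with MAPKi (ATXN1L, CIC, CREBBP, EP300, MED23 and MRTFB) and 0 fell, where 35.8% and 35.9% of all genes did. DESeq2 called 6 higher and 0 lower, where 5447 and 5411 of 15964 genes were. At an unadjusted p under 0.05 in edgeR's quasi-likelihood test, where all genes were not counted, 7 were higher and 0 lower. CIC, the repressor of the PEA3 genes, rose most, from normalized counts of 5009.6, 5024 and 5320.1 with DMSO to 10809, 10163 and 10168 with MAPKi (log2 fold change 1.02, standard error 0.05, adjusted p = 2.18e-07 from the same test). Its partner ATXN1L rose by a log2 fold change of 0.40, and the coactivators CREBBP and EP300 by 0.89 and 0.47. SRF, the partner of the ELK factors, had a log2 fold change of -0.0028 and did not pass (adjusted p = 0.962), and COP1, a ubiquitin ligase of PEA3 proteins, one of 0.12 that did not pass (adjusted p = 0.0607). MRTFB, a cofactor of SRF, lost its call without MAPKi replicate 3 (log2 fold change 0.14, adjusted p = 0.0615 in this test). In Gln-depleted cells 5 of the 11 were higher (ATXN1, ATXN1L, COP1, DET1 and SRF), where 8.84% of all genes were, with log2 fold changes from 0.62 to 0.88. With the block 7 were higher and 2 lower (MRTFA and MRTFB), where 22.7% and 19.8% of all genes were. Without the block, 0 of the 11 were called higher by edgeR when Gln-depleted replicate 2 or any CTRL library was left out, 1 without Gln-depleted replicate 3 and 3 without Gln-depleted replicate 1. Over all genes, 502 to 1072, 746 and 1601 were called higher in these fits, against 1406 with all libraries. At an unadjusted p under 0.05 in edgeR's quasi-likelihood test with all libraries, where all genes were not counted, 6 were higher and 1 was lower. With DESeq2 5 were higher, where 1929 of 15869 genes were.

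The 9 genes known to be repressed by CIC, most of which encode feedback inhibitors of the pathway, mostly fell with MAPKi. Of these, 8 fell and 1 rose (SHC4, log2 fold change 0.38), where 35.9% of all genes fell and 35.8% rose, with a median log2 fold change of -2.87. DUSP6, the ERK phosphatase, fell most, from 4302, 4634 and 4477 reads with DMSO to 2, 8 and 8 reads with MAPKi. SPRY4 and SPRY2, of the Sprouty family of inhibitors, had log2 fold changes of -7.46 and -5.65, and SPRED2, of the related SPRED family, one of -1.53. SHC3 rested on few reads, with 15 to 21 per DMSO library and 5 to 6 per MAPKi library, and reached the limit on low counts through its DMSO libraries. In Gln-depleted cells 4 of the 9 were higher (CCND1, DUSP6, SPRED2 and SPRY4) without the block and 7 with it, where 8.84% and 22.7% of all genes were, with a median log2 fold change of 0.73 without the block. CCND1, which encodes cyclin D1, had the largest difference, with normalized counts of 14820.0, 16270 and 17501 in CTRL and of 74308, 66068 and 47641 in Gln-depleted libraries (log2 fold change 1.95, standard error 0.22, edgeR quasi-likelihood adjusted p = 0.00232). It passed whichever library was left out. Of the 9 genes, 1 was called higher without Gln-depleted replicate 2, CTRL replicate 2 or CTRL replicate 3, 3 without Gln-depleted replicate 3 or CTRL replicate 1 and 5 without Gln-depleted replicate 1. Over all genes, 502 to 543, 746 to 1072 and 1601 were called higher in these fits, against 1406 with all libraries.

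The 10 immediate-early genes with serum response elements, on which ternary complex factors and SRF act, went in both directions with MAPKi. Here 5 fell (EGR1, EGR2, EGR3, IER2 and NR4A1) and 2 rose (FOS and JUNB), where 35.9% of all genes fell and 35.8% rose. EGR1 had normalized counts of 699, 637 and 654 with DMSO and of 34.3, 37.6 and 45.3 with MAPKi (log2 fold change -4.08, standard error 0.12, edgeR quasi-likelihood adjusted p = 2.35e-08). EGR2 had 30, 28 and 42 reads with DMSO and 3, 1 and 0 with MAPKi, and reached the limit on low counts through its DMSO libraries. FOS, the classical target of ELK1, had normalized counts of 779, 692 and 733 with DMSO and of 3675, 4081 and 3966 with MAPKi, all higher (log2 fold change 2.41, standard error 0.06, adjusted p = 1.23e-08 from the same test). In Gln-depleted cells 7 of the 10 were higher (EGR1, EGR2, EGR3, FOSB, IER2, MCL1 and SRF) and 8 with the block, where 8.84% and 22.7% of all genes were, and the median log2 fold change was 1.52. EGR1 had normalized counts of 2299, 743 and 1085 in CTRL and of 3670.4, 9364 and 6680.4 in Gln-depleted libraries (log2 fold change 2.26, standard error 0.48, adjusted p = 0.0207 from the same test). Its adjusted p in this test was between 0.059 and 0.0756 without Gln-depleted replicate 2 or 3 or CTRL replicate 2 or 3. EGR2 had the largest difference, with normalized counts of 43.2, 16.2 and 18.7 in CTRL and of 119.8, 332 and 120.5 in Gln-depleted libraries (log2 fold change 2.87, standard error 0.58, edgeR quasi-likelihood adjusted p = 0.0166). Without Gln-depleted replicate 2, CTRL replicate 2 or CTRL replicate 3 its adjusted p in this test was 0.0549, 0.0659 and 0.0631. Of the 10 genes, 2 were called higher without Gln-depleted replicate 2 or CTRL replicate 2, 3 without CTRL replicate 3, and between 5 and 7 without any other library of the experiment. Over all genes, 502 to 513, 543 and 746 to 1601 were called higher in these fits, against 1406 with all libraries.

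**Figure D5:**
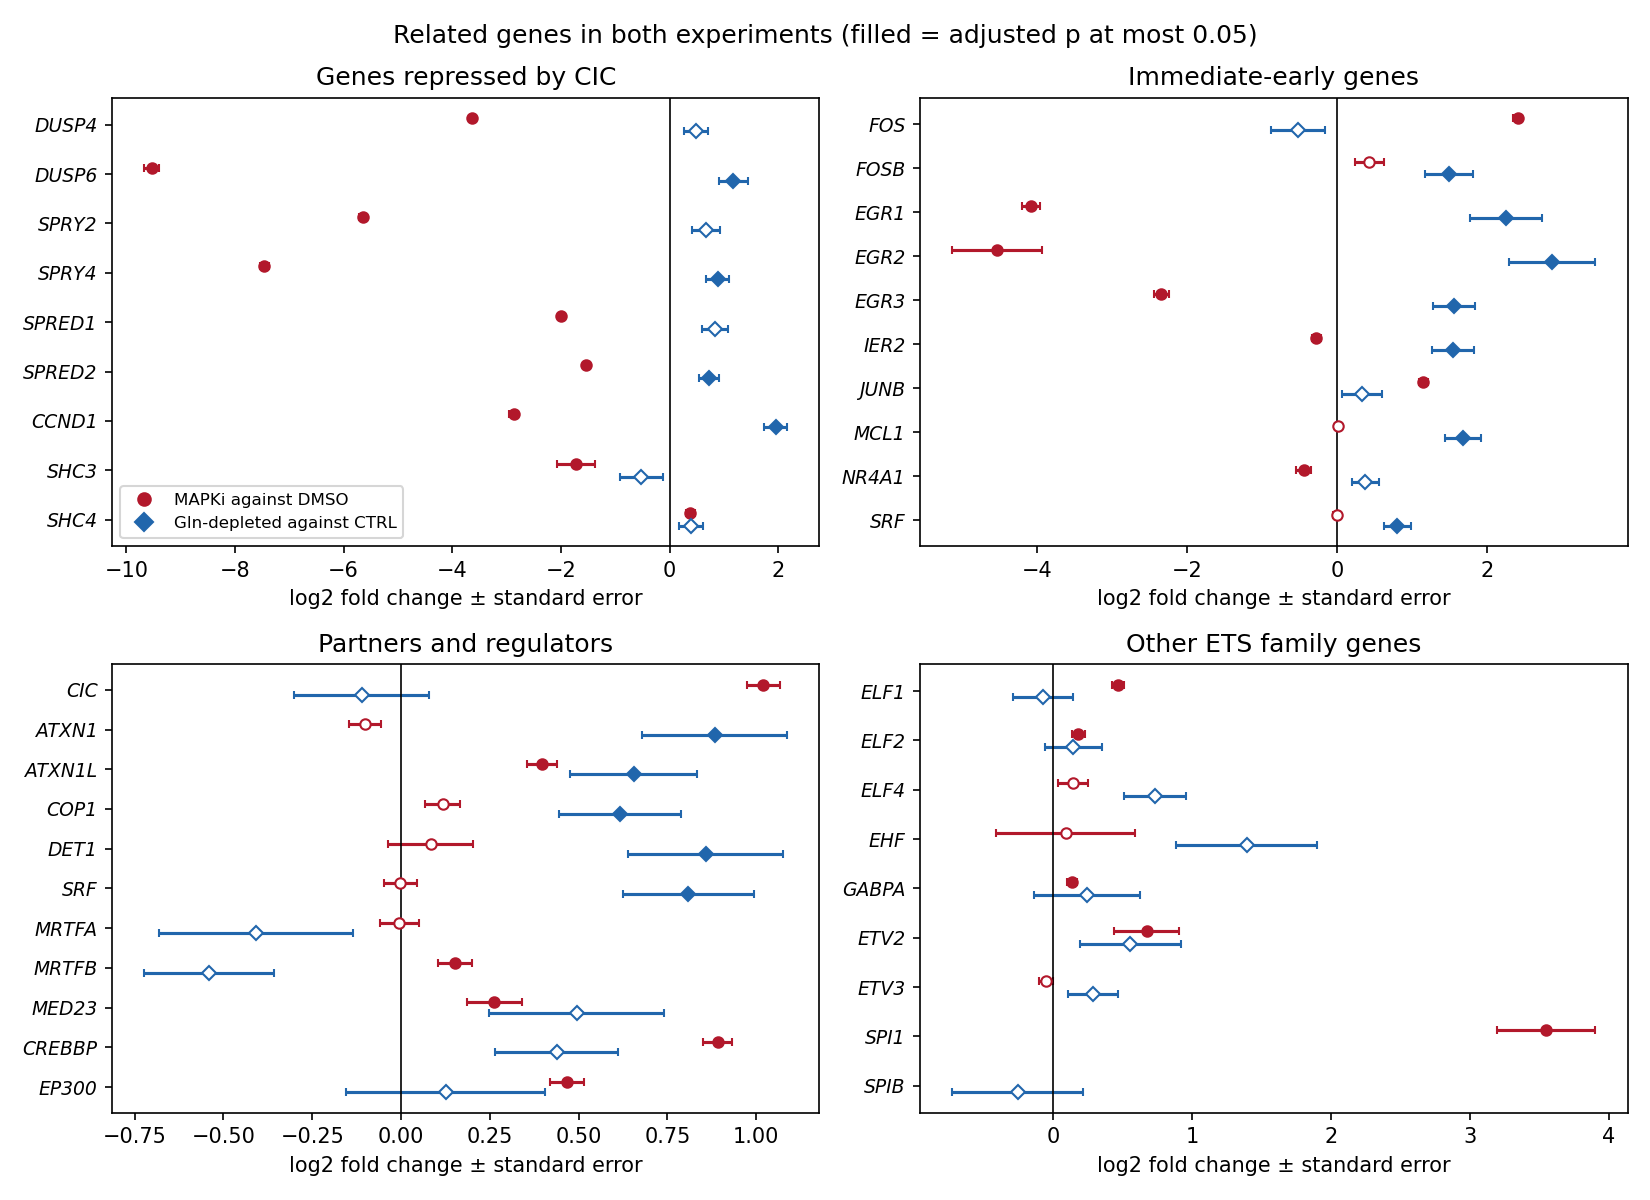
Log2 fold change with its standard error of genes repressed by CIC, immediate-early genes, partners and regulators, and the other ETS family genes tested, with MAPKi (circles) and in Gln-depleted cells without the block (diamonds). Filled symbols had an adjusted p of 0.05 or less in edgeR's quasi-likelihood test. Of the genes repressed by CIC, 8 of 9 lie below 0 with MAPKi, and of the immediate-early genes FOS (2.41) and EGR1 (-4.08) lie far apart.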

How the data were processed

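Raw counts of reads on exons were used as the authors deposited them, with 44659 genes named by symbol in 12 libraries. No column of values was left aside. Per the labels, cytoplasmic RNA was isolated after lysis in Triton X-100 and depleted of ribosomal RNA, whereas the methods of the study speak of total RNA. The submitters' processing notes name fastp 0.20.1, HISAT2 2.2.1 and HTSeq 0.13.5 with GRCh38.p13, and the strand setting is not given in the sources used here. Cytoplasmic RNA would lack transcripts held in the nucleus.

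Each experiment was fitted alone with edgeR 4.0.16 in R 4.3.3 (TMM, quasi-likelihood, treatment as the only term) on genes of any type whose normalized counts averaged 10 or more, with Benjamini-Hochberg adjustment over all genes tested, and changes of more than 1.5-fold were tested with glmTreat. Standard errors from edgeR are the absolute log2 fold change divided by the square root of the quasi-likelihood F statistic. DESeq2 1.42.0, the tool of the study, served as an alternative. The procedure was tested on simulated data, in which part of the changes were missed. False calls exceeded the limit of the adjustment, most of all in the MAPKi simulation tested against no change. They did not exceed it in the Gln depletion simulation tested for more than 1.5-fold. The false calls of the tests against no change had a median dispersion above that of all genes. The difference between experiments was a contrast over the 12 libraries. Positions and exon lengths came from GENCODE 44 and promoters from RefSeq. Python 3.11.15 with pandas 2.3.3 and matplotlib 3.10.9 made the tables and figures.

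The members and the lists of related genes were chosen with earlier results of these data known. All 10 members are named, together with the largest rise and fall of each list in full and, as the nearest patterns, the 3 genes with the smallest distance to each PEA3 gene among those averaging 100 normalized counts or more. EGR1 is also given in full, since its promoter is shown. Lists are described by counts and medians and were not tested as sets.

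Libraries of a group differed by more than sampling noise (chi-square over its degrees of freedom, 4.47 to 14.4 in the MAPKi and 36.2 to 174 in the Gln depletion experiment). Pairing comes from the replicate numbers in the labels. In the Gln depletion experiment, libraries of the same number deviated together from their groups (correlations across 15900 genes, which are not independent replicates, of 0.475, 0.327 and 0.380), so values with a replicate block stand beside its results. Alternatives were DESeq2's size factors, DESeq2, a limit of 2 reads or a mean of at least 100, protein-coding genes only, the replicate block, a fit of all 12 libraries, experimental batch as a term, batch 2 only, each library left out in turn and the longest transcript for lengths. The longest transcript for shares was added after the data were seen.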

Additional observations from a re-analysis of the deposited data

How the results depend on the processing

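With MAPKi, 128 of the 130 log2 fold changes of members computed under other settings kept their direction and their side of the threshold, the exceptions being ETS1 and ELK4 in the fit of all 12 libraries, where the number of members higher was 0 (7 stayed lower). Of the 150 values for Gln depletion, 121 did, 22 passed the threshold only under the alternative, 4 no longer passed (ELK1 with a library left out) and 3 changed sign, all of ETS1 (-0.011 with the replicate block, -0.35 without Gln-depleted replicate 2 and -0.08 without CTRL replicate 1, in a range from -0.35 to 0.21 over the libraries left out). For the difference between experiments 170 of 180 did, 8 no longer passed (ERF) and 2 passed only under the alternative (ELK4 with the block and ETS1 without Gln-depleted replicate 2). The cause of these changes was not tested.

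The number of members higher in Gln-depleted cells was 1 as reported, 2 with DESeq2, 4 in the fit of all 12 libraries, 6 with the experimental batch as a term, 5 in batch 2 only and between 0 and 2 when a library was left out. The number lower was 0, and 1 in the fit of all 12 libraries or with the batch term. The number upregulated was 0, and 1 in the fit of all 12 libraries, with the batch term or in batch 2 only. With the replicate block, which follows the pairing of the libraries, these numbers were 6 higher, 1 lower and 2 upregulated. Over all genes, 510 of 15900 were upregulated as reported and 1039 of 16072 in the fit of all 12 libraries. With the batch term 1226 of 15900 were, in batch 2 only 803 of 15899, and with the block 1337 of 15900. The number of members with a positive difference between experiments was between 0 and 1 when a library was left out, where 2204 to 3475 of all genes had one. In the MAPKi experiment, where the same replicate numbers had correlations of 0.0261, 0.0504 and 0.0276 and do not pair the libraries, the block left 7 members lower and 2 higher. Over all genes, 5793 of 15975 were lower and 5823 higher with that block. The PEA3 share was 57.9% with DMSO and 2.02% with MAPKi when the longest transcript was used.

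Over all genes, 1106 were lower and 1406 higher in Gln-depleted cells, and 3154 and 3607 with the block, 3178 and 2947 when all 12 libraries were fitted, 2831 and 3343 with the batch term, 2177 and 2471 in batch 2 only, and from 223 to 1500 and from 502 to 1601 with a library left out. DESeq2 called 1619 lower and 1929 higher in Gln-depleted cells. With MAPKi, 5742 were lower and 5723 higher, against 3802 and 3574 when all 12 were fitted. Low read numbers limit the values of EGR2, DUSP6 and SHC3 with MAPKi and of SPI1 with DMSO. Each of these genes reached the limit on low counts through the other group of the MAPKi experiment.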
